A study of Mus musculus with 16 samples.

Results

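The genes described here encode the insulin-like growth factors, their receptors and the proteins that bind them in the extracellular space: Igf1, Igf2, Igf1r, Igf2r, Igfbp2, Igfbp3, Igfbp4, Igfbp5, Igfbp6 and Igfbp7. Every probe set whose only platform gene symbol is one of these names was taken, which gave 28 of the 34945 probe sets with 1 symbol, and 10 of 18193 genes. Igf1 was covered by 4 probe sets, Igf2 by 2, Igf1r by 5, Igf2r by 2, Igfbp2 and Igfbp6 by 1 each, Igfbp3 and Igfbp5 by 2 each, Igfbp4 by 6 and Igfbp7 by 3. The RNA came from dorsal incisional wounds of wild-type C57BL/6 mice, all labelled female, in a murine hypertrophic scar model, and was hybridized to 16 Affymetrix arrays. The 4 groups of 4 arrays were unstressed and stressed wounds at day 6 and unstressed and stressed wounds at day 14, where stressed wounds had been mechanically loaded for 48 hours before the day 6 harvest or for 10 days before the day 14 harvest. The design text gives 4 mice to each group and time point. The sources used here do not say how old the mice were or whether unstressed wounds carried an unloaded device.

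IGF1 and IGF2 are small secreted growth factors that act mainly through the receptor tyrosine kinase IGF1R, which signals through IRS adaptors to the PI3K-AKT and RAS-ERK pathways and favours growth, survival and matrix production. IGF2R carries no kinase; it binds IGF2 and takes it to lysosomes. Secreted binding proteins hold most of the ligand outside cells, can block or prolong its action, and are themselves cut by proteases such as pappalysins. In skin, fibroblasts and macrophages are known sources of IGF1 during repair.

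The values are log2 signals that the authors centred for each probe set, so a value tells only how an array stands relative to the others for that probe set, and no level can be compared between genes or called present or absent. Keratinocyte genes and other skin markers could therefore not be used to check the tissue by their level. The base of the log was read as 2 and is not stated. In tissue RNA of this kind, fewer cells of a type and less RNA per cell cannot be told apart. Although all mice are labelled female, the arrays fell into 2 classes by the sex-linked transcripts: Xist was high (5.98 to 6.30) with low Y-linked signal (mean of 3 genes -3.97 to -3.53) in replicates 3 and 4 of both day 14 groups. In the other 12 arrays, all day 6 arrays included, Xist lay between -0.53 and 0.81 and the Y-linked mean between -0.99 and 0.74. Both day 14 groups hold 2 arrays of each class, so day 14 loading differences are given within each class as well. The day 14 tissue also differed in its cell type markers. With loading, 9 of 10 macrophage genes and 4 of 10 fibroblast genes were higher, where 3.83% of all genes were. In the same comparison 11 of 15 skeletal muscle genes, 6 of 8 adipocyte genes and 2 of 10 hair follicle genes (median of the 10 -1.35, all negative) were lower, where 4.26% of all genes were. Over time in unstressed wounds 7 of 10 hair follicle genes rose (median 2.63). These lists moved beside the members, and their part in the results that follow was not tested.

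Start-site windows of the genes were read from RefSeq (GRCm38.p6, 250 bases before to 50 after an annotated start). All 10 genes had a window, 14 windows in all. Windows of Igf1 and Igfbp2 are shown because these 2 genes had the largest differences with loading. A window of Igf2 is shown because the genes that tracked Igf2 across the arrays were muscle genes. Igfbp2 and Igf2 have several listed starts, and the window at the second is printed for each. It is the window of the gene that held the TGANTCA or CArG box match described below. The sequences run 5′ to 3′ on the strand of the gene, and capitals mark the matches to the motifs searched. The windows lie at chr10:87860861-87861160 (plus strand) for Igf1, chr1:72825137-72825436 (plus strand) for the second start of Igfbp2 and chr7:142661222-142661521 (minus strand) for Igf2.
Igf1: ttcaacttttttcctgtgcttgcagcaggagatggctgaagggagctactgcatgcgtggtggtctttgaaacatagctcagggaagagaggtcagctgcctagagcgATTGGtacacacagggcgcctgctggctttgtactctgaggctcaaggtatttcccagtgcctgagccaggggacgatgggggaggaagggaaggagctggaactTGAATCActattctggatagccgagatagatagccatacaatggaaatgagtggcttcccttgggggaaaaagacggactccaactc
Igfbp2, second start: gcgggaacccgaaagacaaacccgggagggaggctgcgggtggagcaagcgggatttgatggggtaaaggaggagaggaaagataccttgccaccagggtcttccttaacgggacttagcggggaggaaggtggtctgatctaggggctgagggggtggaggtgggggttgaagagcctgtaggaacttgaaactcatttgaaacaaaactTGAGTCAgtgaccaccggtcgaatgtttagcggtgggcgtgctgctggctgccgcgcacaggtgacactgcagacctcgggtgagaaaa
Igf2, second start: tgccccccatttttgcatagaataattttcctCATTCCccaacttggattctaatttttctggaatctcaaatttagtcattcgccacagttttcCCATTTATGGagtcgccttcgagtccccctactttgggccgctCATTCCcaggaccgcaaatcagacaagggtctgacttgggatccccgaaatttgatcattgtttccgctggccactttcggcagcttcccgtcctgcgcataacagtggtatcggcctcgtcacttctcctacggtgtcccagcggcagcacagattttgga

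Motifs were searched on both strands, and positions count from the start site. The letters TGANTCA, in which N is any base, occurred at -37 in the Igf1 window as TGAATCA. They occurred at -39 in the second window of Igfbp2 as TGAGTCA, a form of the core bound by AP-1 factors. No other window of the 10 genes held TGANTCA. Of 32851 windows of the annotation, 7.81% held TGANTCA. The Igf2 window held a CArG box, the motif of serum response factor, at -155. This start of Igf2 was chosen for print because of that match. A CArG box was in 1 of the 14 windows of the 10 genes and in 1.63% of all windows. The Igf2 window also held the letters GGAATG on the reverse strand at -218 and at -112. GGAATG was in 4 of the 14 windows and in 14.7% of all windows. The Igf1 window also held CCAAT on the reverse strand at -142. The background share of CCAAT was 37.4%. TATAAA (13.6% of all windows) and GGGCGG (35.7%) were in none of the 3 windows printed. GGGCGG was in 6 of the 14 windows, among them start 1 of Igfbp2 and starts 3 and 4 of Igf2. TATAAA was in 2 of the 14, those of Igfbp4 and Igfbp6. The motifs searched did not overlap in these windows. A match describes letters only, and binding was not measured.

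The first comparison asks how mechanical loading changed these transcripts after 10 days of load. At day 14, Igf1 and Igfbp2 were higher in stressed than in unstressed wounds, with all 4 Igf1 probe sets and the single Igfbp2 probe set past the threshold. One Igfbp5 probe set was also higher, and one Igf1r probe set was lower. In all, 6 of 28 probe sets were called higher, where 3.31% of all probe sets were, and 1 was called lower, where 4.04% were (limma, adjusted p under 0.05). The 4 Igf1 probe sets read the same gene and do not count as separate genes. The median difference of the 28 was 0.27, against 0.0052 over all probe sets. The stressed group lay wholly above the unstressed group for 8 probe sets, where 5.55% of all did so, and wholly below for none, where 4.52% did. With day 14 arrays alone in the fit, the calls were Igf1 1434413_at and 1437401_at, Igfbp2 had an adjusted p of 0.054, and the number of calls over all probe sets went from 2567 to 122. After quantile normalization the calls were Igf1 1437401_at and Igfbp2, a split of 2 higher and 0 lower. Over all probe sets 188 were higher and 176 lower after that step.

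**Figure D1:**
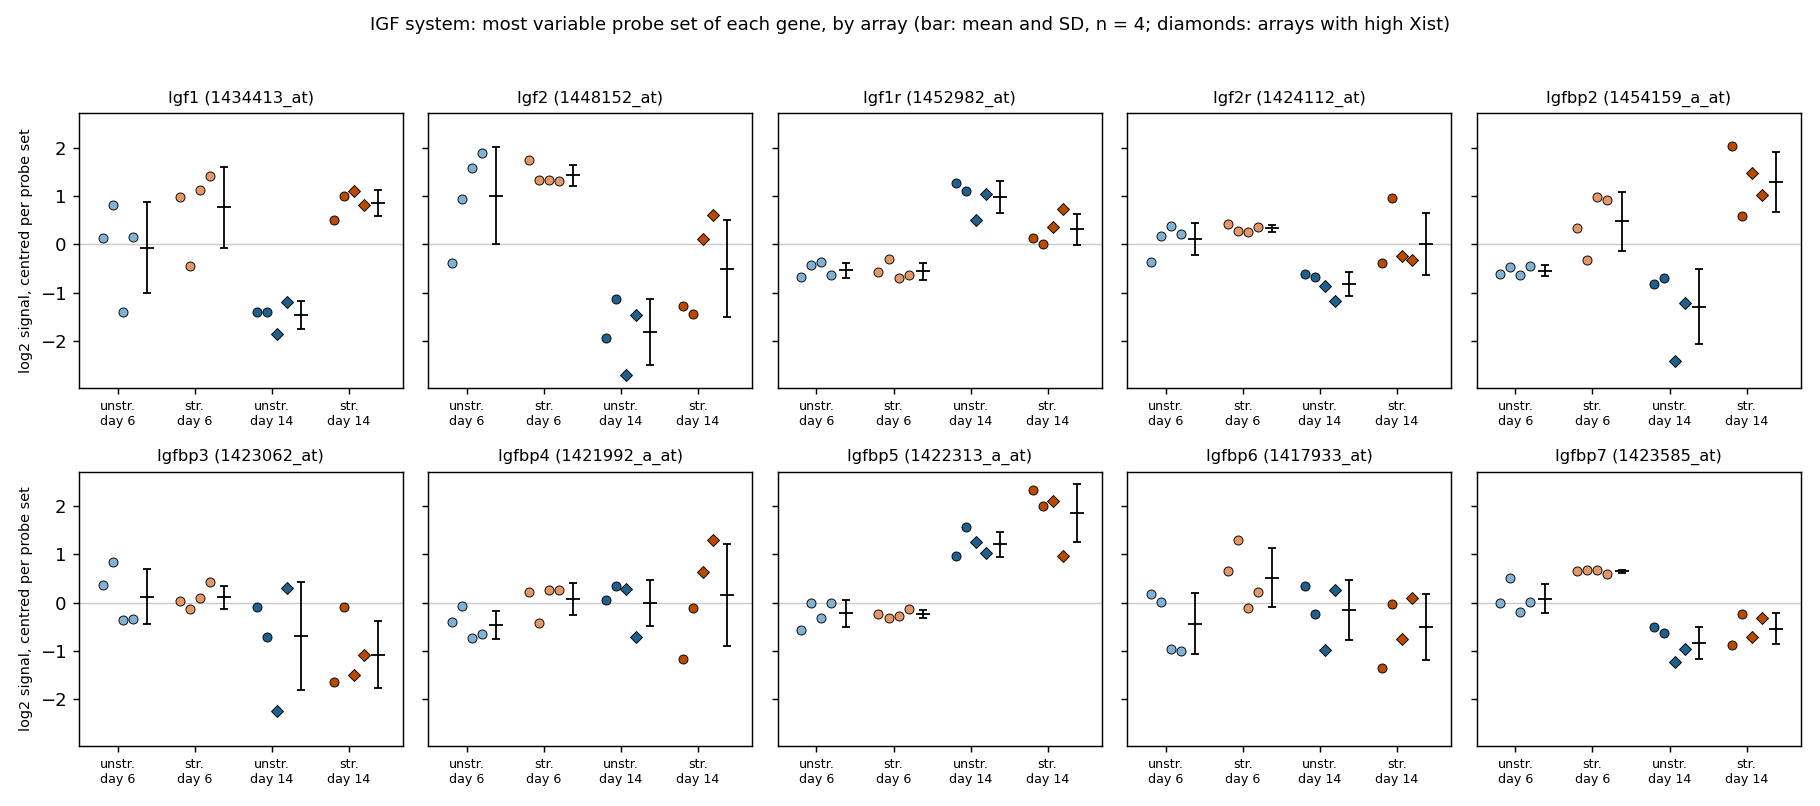
Deposited log2 signal, centred per probe set, of the lead probe set of each of the 10 genes in each of the 16 arrays, with the 4 groups along the x axis and a bar for the group mean. For Igf1 and Igfbp2 the 4 stressed arrays at day 14 sit above all 4 unstressed arrays of that day.

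Among the ligands, Igf1 was followed first with the probe set of the widest spread, 1434413_at. Its values were -1.41, -1.39, -1.87 and -1.19 in unstressed replicates 1 to 4 at day 14 and 0.50, 0.996, 1.11 and 0.82 in stressed replicates 1 to 4. All stressed arrays lay above all unstressed arrays, and the spread within each group was small beside the gap. The group means were -1.47 ± 0.29 and 0.86 ± 0.27 (SD, n = 4 each), a log2 difference of 2.32 (SE 0.42, adjusted p = 0.00521).

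A second Igf1 probe set, 1437401_at, gave -1.46, -1.55, -2.28 and -1.38 in unstressed and -0.28, 0.68, 0.53 and 0.87 in stressed wounds. These groups also did not overlap, and the difference was 2.12 (SE 0.26, adjusted p = 0.000465). The remaining Igf1 probe sets differed by 1.43 (SE 0.33, adjusted p = 0.0187) for 1419519_at and by 1.71 (SE 0.40, adjusted p = 0.0181) for 1452014_a_at. The groups were apart in both. The calls of 1434413_at and 1437401_at held when any single day 14 array was left out; 1419519_at lost its call without stressed replicate 1 or without stressed replicate 2 (adjusted p up to 0.064), and 1452014_a_at lost it without stressed replicate 2 (adjusted p = 0.0703). Macrophage genes, which are listed here because macrophages make Igf1, were higher in the same arrays: the median of the 10 ranged from -2.52 to -1.52 in unstressed and from -0.91 to 0.12 in stressed arrays at day 14, and that of the 10 fibroblast genes from -1.94 to -0.78 and from -0.21 to 0.46. Their part in the differences of Igf1, Igfbp2 and Igfbp5 was not tested.

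Igf2, the second ligand and an imprinted fetal growth factor, differed less uniformly. Its probe set 1448152_at read -1.94, -1.14, -2.71 and -1.47 in unstressed and -1.27, -1.45, 0.10 and 0.60 in stressed replicates 1 to 4 at day 14. Stressed replicates 3 and 4 were high, while stressed replicates 1 and 2 lay among the unstressed arrays. The difference of 1.31 (SE 0.50, adjusted p = 0.126) did not pass the threshold. It was 0.18 in the arrays with Y-linked signal and 2.44 in the Xist arrays, and the difference between the classes was 2.26 (SE 0.81, adjusted p = 0.18). The other Igf2 probe set, 1415931_at, differed by 0.12 (SE 0.15).

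Of the receptors, Igf1r was read by 5 probe sets that did not move together. The lead probe set 1452982_at gave 1.26, 1.10, 0.51 and 1.04 in unstressed and 0.14, 0.012, 0.36 and 0.73 in stressed wounds at day 14, so the groups overlapped through unstressed replicate 3 and stressed replicate 4. It was lower with loading, with a difference of -0.67 (SE 0.18, adjusted p = 0.0328). It was -1.11 in the arrays with Y-linked signal and -0.23 in the Xist arrays, where the call was lost (adjusted p = 0.722), and the difference between the classes was 0.88 (SE 0.28, adjusted p = 0.141). The other 4 probe sets ranged from -0.25 to 0.32, and none passed. The call was lost with the replicate number as a block (adjusted p = 0.0631) and in 5 of 8 refits without 1 array, namely without unstressed replicate 1, 2 or 4 or stressed replicate 1 or 2 (adjusted p up to 0.117). The mean of the 5 probe sets differed by -0.090 (adjusted p = 0.683).

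Igf2r, which clears IGF2, was read by 1424112_at at -0.61, -0.67, -0.87 and -1.17 in unstressed and -0.38, 0.96, -0.24 and -0.33 in stressed wounds of day 14. All 4 stressed arrays were above the unstressed ones, with stressed replicate 2 far above the rest. The difference of 0.83 (SE 0.25, adjusted p = 0.0559) missed the threshold and passed with the Xist class as a block (adjusted p = 0.0265). The second Igf2r probe set, 1424111_at, differed by 0.15 (SE 0.23).

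Among the binding proteins, Igfbp2 had the largest day 14 difference with loading of the 28 probe sets. Igfbp2 binds both ligands and carries an integrin-binding motif. Its probe set read -0.82, -0.70, -2.42 and -1.22 in unstressed and 2.04, 0.59, 1.49 and 1.02 in stressed replicates 1 to 4. The groups were well apart, although unstressed replicate 3 was lower and stressed replicate 1 higher than their fellows. The means were -1.29 ± 0.78 and 1.29 ± 0.62 (SD, n = 4 each), a difference of 2.58 (SE 0.37, adjusted p = 0.00167), or 5.96-fold with base 2. It kept its call in all 8 refits without 1 day 14 array, with adjusted p between 0.00129 and 0.00532.

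Igfbp5 is a binding protein that attaches to extracellular matrix, and its gene is the neighbour of Igfbp2 on chromosome 1. Both of its probe sets had a positive loading difference at day 14, and 1 of them passed. Probe set 1452114_s_at read -1.29, -0.98, -2.73 and -1.08 in unstressed and 0.017, -0.40, -0.016 and -0.79 in stressed wounds. The stressed arrays all lay above the unstressed ones, and the difference was 1.22 (SE 0.31, adjusted p = 0.0264). This call was lost with the replicate number as a block (adjusted p = 0.0611) and without stressed replicate 1, 2 or 3 (adjusted p up to 0.0793). Probe set 1422313_a_at, with 0.97, 1.56, 1.26 and 1.03 in unstressed and 2.34, 1.99, 2.11 and 0.97 in stressed wounds, overlapped through stressed replicate 4 and differed by 0.65 (SE 0.24, adjusted p = 0.11).

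Igfbp4, an inhibitory binding protein that pappalysins cleave, had no call at day 14, yet the stressed arrays of its probe set 1423756_s_at were the most scattered of the 28 (SD 1.39). This probe set read -2.17, -0.68, 0.67 and 0.82 in stressed replicates 1 to 4, against -0.11, 0.13, -0.037 and -0.29 in unstressed ones. Stressed replicates 1 and 2 lay below, and 3 and 4 above, the unstressed array of the same number. The 6 probe sets differed by -0.39 to 0.58 over all arrays. In the arrays with Y-linked signal all 6 had negative differences (-1.43 to -0.22), and in the Xist arrays all 6 had positive differences (0.53 to 1.39).

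The difference between the classes was fitted across all probe sets with a mean for each group and class, a test added after these values were seen. It passed for 4 of the 28 probe sets, where 1.47% of all probe sets passed, and all 4 were Igfbp4: 2.05 (SE 0.39, adjusted p = 0.0245) for 1423757_x_at, 1.94 (SE 0.39, adjusted p = 0.0291) for 1437406_x_at, 2.34 (SE 0.48, adjusted p = 0.0332) for 1423756_s_at and 1.84 (SE 0.40, adjusted p = 0.0416) for 1437405_a_at. Each class holds 2 arrays of each day 14 group. For Igfbp2 the loading difference was 2.08 in the arrays with Y-linked signal and 3.07 in the Xist arrays. For Igf1 it was 1.70 and 2.53 with 1437401_at, and 2.15 and 2.49 with 1434413_at. The other Igf1 probe sets had the larger value in the arrays with Y-linked signal, 1.79 against 1.07 with 1419519_at and 2.03 against 1.39 with 1452014_a_at. All Igf1 probe sets, Igfbp2 and both Igfbp5 probe sets had positive differences in both classes. Over all members, 18 of 28 probe sets had the same sign in both. Sex and the replicate number cannot be told apart here, since replicates 1 and 2 are of one class and replicates 3 and 4 of the other.

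**Figure D2:**
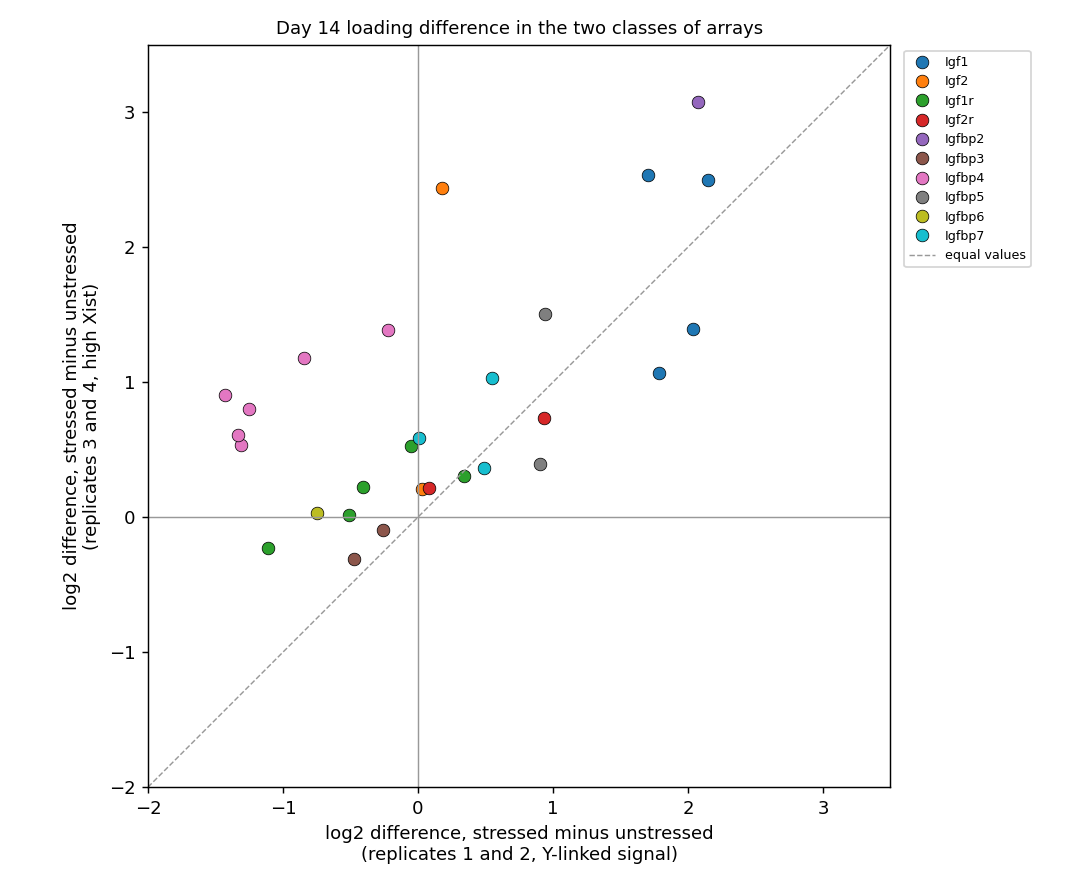
Day 14 log2 difference, stressed minus unstressed, of the 28 probe sets in replicates 1 and 2 (x axis, arrays with Y-linked signal) and in replicates 3 and 4 (y axis, arrays with high Xist), 1 point a probe set, coloured by gene, with a dashed line for equal values. The 6 Igfbp4 points lie left of 0 and above 0, and the Igf1 and Igfbp2 points lie at 1.07 or above on both axes.

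The remaining binding proteins had no call for loading at day 14. Igfbp3, the main carrier in serum, read -0.096, -0.70, -2.25 and 0.30 in unstressed and -1.65, -0.10, -1.50 and -1.08 in stressed wounds with 1423062_at, a difference of -0.39 (SE 0.46, adjusted p = 0.669). Unstressed replicate 3 was the lowest array, below every stressed one. Igfbp6, which prefers IGF2, read 0.35, -0.24, -0.99 and 0.27 in unstressed and -1.36, -0.020, -0.75 and 0.091 in stressed wounds, and the overlapping groups differed by -0.36 (SE 0.40, adjusted p = 0.652). Igfbp7, a related secreted protein with low affinity for the ligands, differed by 0.30 to 0.79 with its 3 probe sets, none of which passed (adjusted p = 0.0688 to 0.365).

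**Figure D3:**
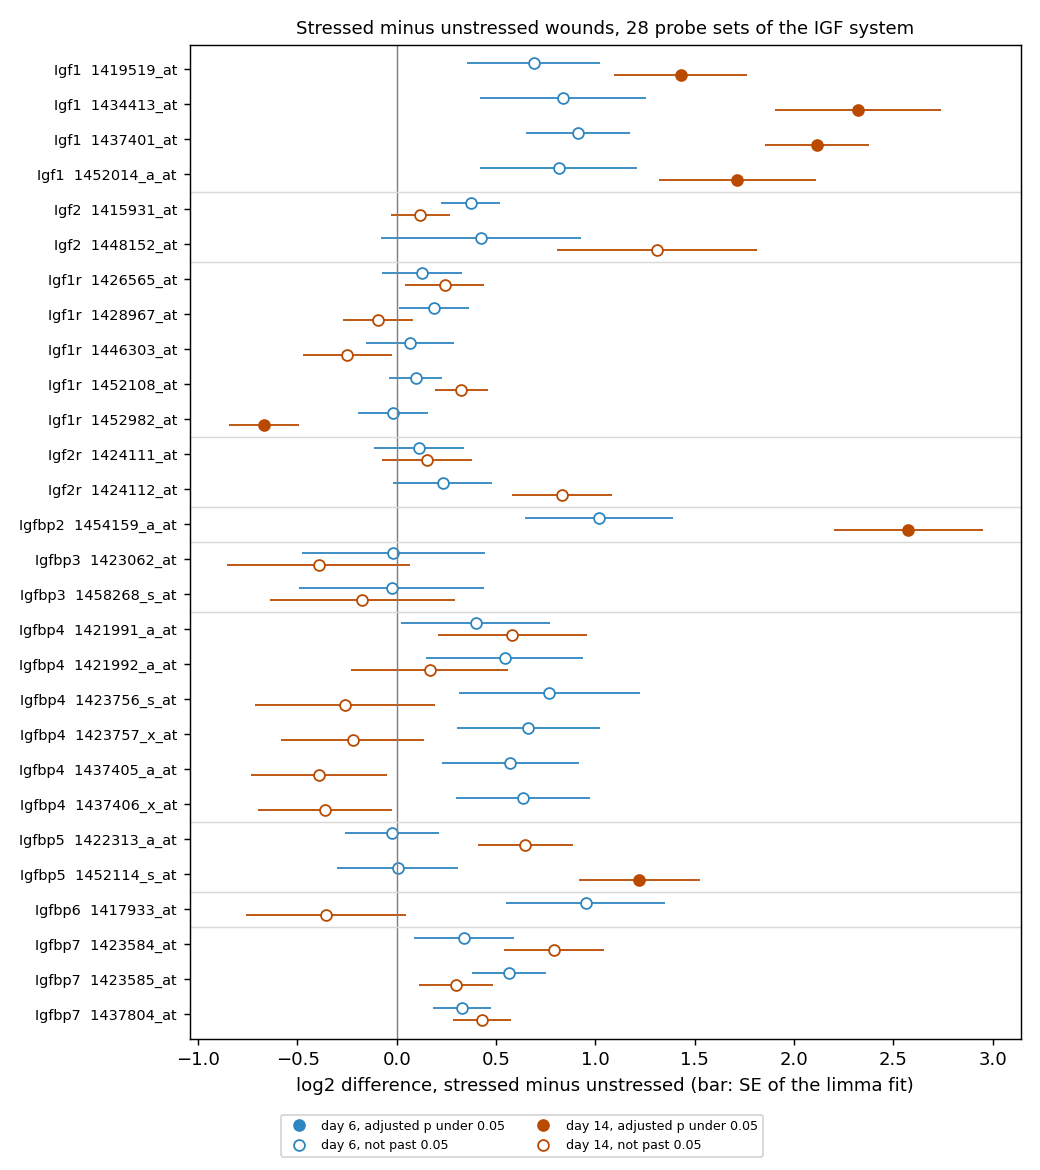
Log2 difference, stressed minus unstressed, of the 28 probe sets at day 6 and at day 14, with the SE of the limma fit as the bar and filled points for adjusted p under 0.05. At day 14 the filled points are the 4 Igf1 probe sets, Igfbp2 and Igfbp5 1452114_s_at to the right of 0 and Igf1r 1452982_at to the left, and at day 6 there are none.

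After 48 hours of loading, at day 6, none of the 28 probe sets passed in limma, where 0.0258% of all probe sets did, and 6 had an unadjusted p under 0.05, where 5.67% of all did. The differences were mostly positive: 24 of 28 were above 0, where 50.3% of all probe sets were. Their median was 0.38, while the median over all probe sets was 0.0011. Several of the 28 read the same gene, so they do not count as separate genes. The stressed group lay wholly above the unstressed group for 7 of 28 probe sets, where 3.11% of all did so, and wholly below for none, where 3.05% did. These 7 were Igf1 1437401_at, Igfbp2, Igfbp7 1423585_at and 4 Igfbp4 probe sets.

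Igf1 1437401_at read -0.13, 0.51, -0.50 and -0.077 in unstressed and 0.85, 0.57, 0.93 and 1.09 in stressed wounds at day 6, a difference of 0.91 (SE 0.26, adjusted p = 0.442). The other Igf1 probe sets were positive by 0.69 to 0.84, with overlapping groups. With the lead probe set, 0.13, 0.82, -1.40 and 0.16 in unstressed and 0.98, -0.46, 1.13 and 1.41 in stressed wounds, unstressed replicate 3 and stressed replicate 2 lay below the rest of their groups.

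Igfbp2 read -0.62, -0.47, -0.64 and -0.44 in unstressed and 0.33, -0.33, 0.98 and 0.92 in stressed wounds at day 6. Stressed replicate 2 came close to the unstressed arrays and the other stressed arrays did not. The difference was 1.02 (SE 0.37, adjusted p = 0.667). Igfbp6 differed by 0.95 (SE 0.40, adjusted p = 0.797), from 0.18, 0.020, -0.96 and -0.997 to 0.65, 1.30, -0.12 and 0.23, with overlap. Igfbp7 1423585_at was tight in the stressed group (0.66, 0.67, 0.67 and 0.59) and lower in the unstressed group (-0.0072, 0.51, -0.19 and 0.0072), a difference of 0.57 (SE 0.19, adjusted p = 0.554).

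The 6 Igfbp4 probe sets were all positive at day 6, by 0.40 to 0.77 (adjusted p at least 0.923). The lead probe set read -0.41, -0.072, -0.73 and -0.65 in unstressed and 0.21, -0.42, 0.27 and 0.26 in stressed wounds, where stressed replicate 2 was low. Igf2, Igf1r, Igf2r, Igfbp3 and Igfbp5 differed by -0.025 to 0.42 at day 6. Fibroblast genes were also mostly positive at this day (9 of 10, median 0.64, none past the threshold), as were 10 of 10 macrophage genes (median 0.38, none past the threshold), and their part was not tested.

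The day 14 loading difference was then tested against that of day 6. None of the 28 probe sets passed, where 0.00858% of all probe sets did, and 6 had an unadjusted p under 0.05, where 10% of all had. Igfbp2 differed between the days by 1.56 (SE 0.53, adjusted p = 0.34) and Igf1 by 1.48 (SE 0.59, adjusted p = 0.414) with the lead and 1.21 (SE 0.37, adjusted p = 0.302) with 1437401_at. Igf1r 1452982_at differed by -0.65 (SE 0.25, adjusted p = 0.398), and Igfbp6 by -1.31 (SE 0.57, adjusted p = 0.459). The larger Igf1 and Igfbp2 differences at day 14 were thus not shown to exceed those at day 6. The same numbers compare the change over time in stressed with that in unstressed wounds.

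The time comparisons ask how the genes changed between day 6 and day 14 without and with load. They share their groups with the loading comparisons, so their values are set side by side and do not check one another. All day 6 arrays have Y-linked signal and each day 14 group holds 2 Xist arrays, so time and class are partly confounded in these comparisons. In unstressed wounds, Igf1, Igf2, Igf2r, Igfbp7 and one Igfbp5 probe set fell, while one probe set each of Igf1r, Igfbp4 and Igfbp5 rose. The counts were 8 lower and 3 higher of 28. Over all probe sets 23.4% were lower and 16.8% higher, so the number of changed members was near the background. After quantile normalization the split was 8 higher and 5 lower. It was 6 higher and 5 lower with the arrays with Y-linked signal alone, and 6 higher and 7 lower with only the Xist arrays at day 14. In stressed wounds 4 were lower (26.6% of all) and 3 higher (18.7% of all). The stressed split was 7 lower and 3 higher with the arrays with Y-linked signal alone, and 2 lower and 8 higher with only the Xist arrays at day 14.

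**Figure D4:**
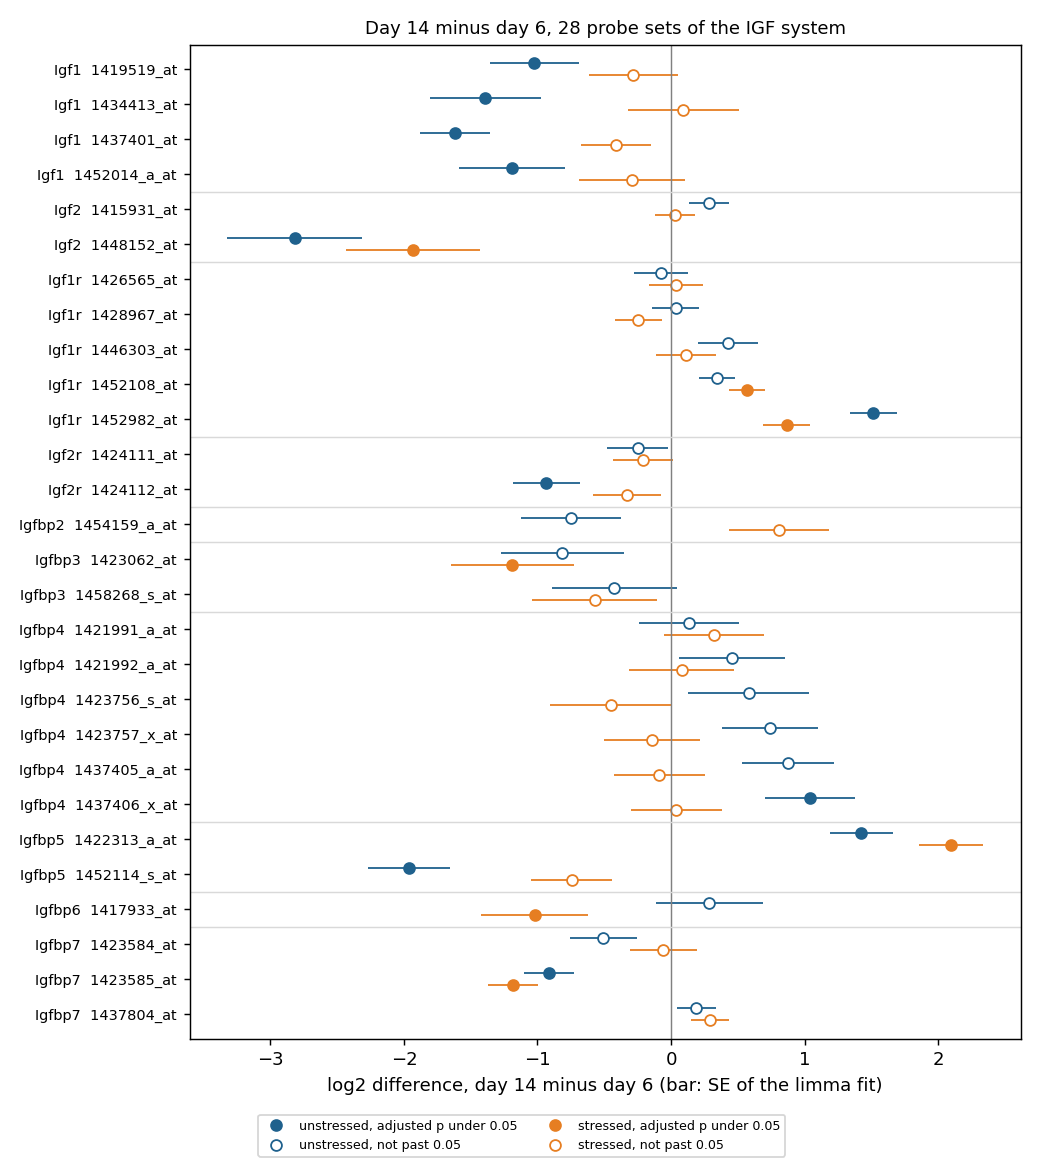
Log2 difference, day 14 minus day 6, of the 28 probe sets in unstressed and in stressed wounds, with the SE of the limma fit as the bar and filled points for adjusted p under 0.05. The 4 Igf1 points lie left of -1 in unstressed wounds and between -0.41 and 0.09 in stressed wounds.

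Igf1 1437401_at fell from -0.051 ± 0.42 to -1.67 ± 0.42 (SD, n = 4 each) in unstressed wounds, a difference of -1.62 (SE 0.26, adjusted p = 0.000278). The other 3 Igf1 probe sets also fell, with differences of -1.02, -1.19 and -1.39, with adjusted p = 0.0234, 0.0258 and 0.0154. These 3 calls each rest on single arrays: 1434413_at lost its call without day 6 replicate 2 (adjusted p = 0.0572), and the others without day 6 replicate 1, 2 or 4 or day 14 replicate 3 (adjusted p up to 0.0914). All 3 also lost it after quantile normalization, and 1419519_at and 1452014_a_at with the Xist class as a block (adjusted p = 0.111 and 0.0955). With the arrays with Y-linked signal alone, 1434413_at and 1419519_at lost it. With only the Xist arrays at day 14, 1434413_at and 1452014_a_at lost it. In stressed wounds the 4 differences were -0.41 to 0.093, and none passed. By group mean, 1437401_at was lowest in unstressed day 14 wounds, followed by unstressed day 6 (-0.051 ± 0.42), stressed day 14 (0.45 ± 0.50) and stressed day 6 (0.86 ± 0.22). The last 3 groups overlap in their values or did not differ past the threshold, and unstressed day 14 wounds lay below all of them. In unstressed wounds 9 of 10 macrophage genes also fell (median -2.13), and their part was not tested.

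Igf2 1448152_at fell in both wound types. Its day 6 values were -0.38, 0.94, 1.58 and 1.89 in unstressed and 1.75, 1.33, 1.33 and 1.31 in stressed wounds. Unstressed replicate 1 was the low array of day 6 and the stressed arrays lay close together. Against the day 14 values given above, the difference was -2.82 (SE 0.50, adjusted p = 0.000557) in unstressed and -1.93 (SE 0.50, adjusted p = 0.00613) in stressed wounds, and the day 6 arrays were above the day 14 arrays in both. The stressed difference was -2.79 with the Y-linked arrays alone and -1.08 (adjusted p = 0.123) with only the Xist arrays at day 14. Over time in stressed wounds 14 of 15 skeletal muscle genes also fell (median -2.75), while in unstressed wounds 1 fell and 1 rose (median -0.052), and their part was not tested. Igf2 1415931_at had no call, with differences of 0.29 and 0.032, so the 2 probe sets disagree. Of the listed Igf2 mRNA-binding proteins, 2 were measured, and both rose over time: Igf2bp3 by 0.85 in unstressed and 0.57 in stressed wounds, and Igf2bp1 by 0.63 and 0.58. Of all genes, 21.9% rose in unstressed and 23.3% in stressed wounds.

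Igf1r 1452982_at rose from -0.69 to -0.37 across the unstressed day 6 arrays to 0.51 to 1.26 at day 14, by 1.52 (SE 0.18, adjusted p = 2.38e-05). In stressed wounds it rose by 0.87 (SE 0.18, adjusted p = 0.00126), and a second probe set, 1452108_at, rose by 0.57 (SE 0.13, adjusted p = 0.00316). The groups did not overlap in these 3 cases. The other Igf1r probe sets differed over time by -0.24 to 0.43 without a call. Igf2r 1424112_at fell in unstressed wounds by 0.93 (SE 0.25, adjusted p = 0.0086) and differed by -0.33 (SE 0.25, adjusted p = 0.298) in stressed wounds. The first of these calls was lost with the arrays with Y-linked signal alone (adjusted p = 0.0682), and the stressed rise of Igf1r with the mean of its 5 probe sets (adjusted p = 0.0614).

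The 2 probe sets of Igfbp5 moved in opposite directions over time in unstressed wounds. With 1422313_a_at the day 6 values were -0.57, -0.00073, -0.32 and 0.00073 in unstressed and -0.24, -0.33, -0.28 and -0.13 in stressed wounds, all below every day 14 array. It rose by 1.43 (SE 0.24, adjusted p = 0.000336) in unstressed and 2.10 (SE 0.24, adjusted p = 2.36e-05) in stressed wounds. With 1452114_s_at the day 6 values were 0.076, 0.69, 0.43 and 0.57 in unstressed and 0.64, 0.47, 0.38 and 0.30 in stressed wounds, all above every day 14 array of the same wound type. It fell by 1.96 (SE 0.31, adjusted p = 0.000207) in unstressed wounds and differed by -0.74 (SE 0.31, adjusted p = 0.0581) in stressed wounds. In the platform's naming, the suffix _a_at marks probes shared by transcripts of 1 gene and _s_at probes shared by several transcripts. A direction over time for Igfbp5 cannot be given from these probe sets.

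**Figure D5:**
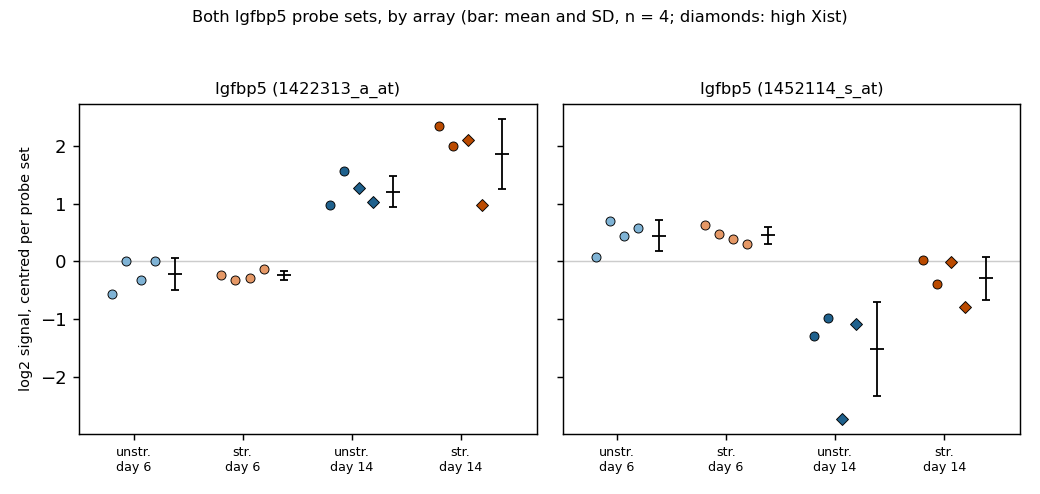
Centred log2 signal of the 2 Igfbp5 probe sets in each array, 1422313_a_at and 1452114_s_at side by side, with the 4 groups along the x axis. From day 6 to day 14 the 1422313_a_at points move up and the 1452114_s_at points move down, while both are higher in most stressed than unstressed arrays at day 14.

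Of the other binding proteins, Igfbp7 1423585_at fell from 0.080 ± 0.30 to -0.84 ± 0.33 in unstressed wounds, a difference of -0.92 (SE 0.19, adjusted p = 0.00145), and from 0.65 ± 0.039 to -0.54 ± 0.31 in stressed wounds (SD, n = 4 each), a difference of -1.18 (SE 0.19, adjusted p = 0.000208). The groups did not overlap in either, and with the mean of the 3 probe sets the stressed call was lost (adjusted p = 0.0679). The remaining Igfbp7 probe sets differed by -0.51 to 0.29 without a call. Igfbp4 1437406_x_at rose in unstressed wounds by 1.04 (SE 0.34, adjusted p = 0.0231), a call lost without day 6 replicate 3 or 4 or day 14 replicate 2 (adjusted p up to 0.0643), and with the Xist class as a block (adjusted p = 0.0983). The other 5 Igfbp4 probe sets were positive there by 0.14 to 0.88.

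Igfbp3 1423062_at fell in stressed wounds, from 0.032, -0.13, 0.10 and 0.43 at day 6, with a difference of -1.19 (SE 0.46, adjusted p = 0.0462), and Igfbp6 fell there by 1.02 (SE 0.40, adjusted p = 0.049). Both were near the threshold, and the groups overlapped. Igfbp3 lost its call in 7 of 8 refits without 1 array (adjusted p up to 0.123), all but the one without stressed day 14 replicate 2. Igfbp6 lost its call in 5 of 8, without stressed day 6 replicate 1, 2 or 4 or stressed day 14 replicate 1 or 3 (adjusted p up to 0.159). Both calls were lost after quantile normalization and with the Xist class as a block (adjusted p = 0.144 for Igfbp3 and 0.087 for Igfbp6). Igfbp2 differed over time by -0.75 (SE 0.37, adjusted p = 0.123) in unstressed and 0.81 (SE 0.37, adjusted p = 0.0889) in stressed wounds. Its group means ran from unstressed day 14 (-1.29 ± 0.78) through unstressed day 6 (-0.54 ± 0.10) and stressed day 6 (0.47 ± 0.61) to stressed day 14 (1.29 ± 0.62), and of the neighbours in this order none differed past the threshold.

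The genes whose lead probe sets ran most like Igf2, Igfbp2 and Igf1 over the 16 arrays were read from 16314 genes by Pearson's r. These 3 members have the widest range of group means. For Igf2 they were Tnnc1 (r = 0.97), the troponin C of cardiac and slow muscle, Myl4 (r = 0.97), an embryonic and atrial myosin light chain, and Myh8 (r = 0.97), the perinatal myosin heavy chain. Within groups, as deviations from the group means, r was 0.87, 0.87 and 0.91. Of the 15 adult skeletal muscle genes, 14 fell over time in stressed wounds (median -2.75), as Igf2 did. At day 14 the median of the list was -1.07 to 0.78 in unstressed and -4.64 to -0.22 in stressed arrays at day 14, and 11 of 15 were lower with loading, where Igf2 had a positive difference without a call. The part of muscle tissue in the Igf2 values was not tested.

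For Igfbp2 the nearest genes were Lum, a collagen-binding proteoglycan (r = 0.92), Fbln5, an elastic fibre protein (r = 0.92), and Fndc3b (r = 0.92), with r of 0.79, 0.74 and 0.64 within groups. For Igf1 they were Glt8d1 (r = 0.94), Aspn, a matrix proteoglycan (r = 0.94), and Lox, the enzyme that crosslinks collagen (r = 0.93), with r of 0.78, 0.77 and 0.83 within groups. The arrays of a group share their treatment and day, and these values describe likeness only.

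Other genes of the pathway were read from lists, 1 lead probe set a gene. Among the IGF carriers and the proteases that free the ligands, all 9 listed genes were measured. At day 14, 2 were higher with loading, where 3.83% of all genes were, and none was lower. These were Adam12, a metalloprotease that can cleave binding proteins, by 3.86 (SE 0.68, adjusted p = 0.00484), and Stc2, an inhibitor of pappalysins, by 0.87 (SE 0.25, adjusted p = 0.0481). None passed at day 6, where Adam12 differed by 1.16 (SE 0.68, adjusted p = 0.952). In unstressed wounds 3 fell over time (differences of -1.44 for Htra1, -0.73 for Stc2 and -1.85 for Adam12), where 30.5% of all genes were lower, and Pappa2 rose by 0.98, where 21.9% of all were higher. None passed over time in stressed wounds.

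Of 22 listed genes of IGF and insulin receptor signalling, 20 were measured. At day 14, Grb10, an adaptor that restrains the receptor, was higher with loading by 1.58 (SE 0.32, adjusted p = 0.00927), and Shc1, an adaptor to the RAS-ERK arm, by 1.21 (SE 0.25, adjusted p = 0.0108). Foxo1, a transcription factor that AKT keeps out of the nucleus, was lower, with a difference of -1.05 (SE 0.24, adjusted p = 0.0184), where 4.26% of all genes were lower. The other 17 did not pass, and none passed at day 6. Over time, 9 fell and 2 rose in unstressed wounds, and 7 fell and 1 rose in stressed wounds, where 33.3% of all genes were lower and 23.3% higher. Pik3ca, a catalytic subunit of PI3K, fell in both, with differences of -1.55 in unstressed and -1.85 in stressed wounds. Pdpk1, the kinase that activates AKT, had -2.40 and -2.38, although its second probe set had the opposite sign in unstressed wounds.

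The 6 genes of the growth hormone axis, which drives Igf1 in liver, had no call for loading at either day. Over time 3 fell in unstressed wounds, Socs2 with a difference of -1.07, Stat5a with -1.44 and Stat5b with -1.17, where 30.5% of all genes were lower. In stressed wounds 5 fell, where 33.3% of all genes were lower. Among them were Socs2 with -1.63, Stat5b with -1.26 and the growth hormone receptor Ghr with -1.19. Only 1 of 2 Stat5b, 4 of 6 Socs2 and 2 of 3 Ghr probe sets had a negative difference in stressed wounds. In unstressed wounds 4 of 6 Socs2 probe sets had one. The difference between the time effects of the 2 wound types passed for none of the 6 genes of this axis. All the genes named here were read from arrays whose number limits the precision. The p-values of the main fit rest on the spread between mice within groups, pooled over the 4 groups. They do not rest on the spread of the compared groups alone.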

How the data were processed

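The deposited table holds 1 value per probe set and array on a log2 scale, centred per probe set by the authors. The base is not stated: the largest range of a probe set, 10.08, is too wide for log10 of a scan, and natural logs would make the differences larger than printed. Per the series design text, each gene had 20 oligonucleotide pairs and GeneSpring GX 11.0 processed the intensities. The sources used here name no background correction, summarization or normalization step. The reference of the centring is unknown, and it cancels in differences. Array medians lay between -0.01 and 0.05.

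Of 45101 probe sets, the platform annotation gave 34958 a single symbol, 932 several and 9211 none. The 64 control rows, 13 of them with a symbol, were left out, and no filter on low values was possible. The fit was limma's (lmFit and eBayes, version 3.58.1, R 4.3.3) with 4 group means over the 16 arrays, two-sided, with Benjamini-Hochberg adjustment over 34945 probe sets and a threshold of 0.05. The lead probe set of a gene has the largest interquartile range. All 10 members are named, with up to 4 pathway genes per list and comparison by smallest p. The members and lists were chosen with earlier results of these data known. The test between the Xist classes (Xist above 3) was added after the values were seen. The fit was also run on simulated data, made with the spreads of these arrays.

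Same-numbered arrays of the 2 day 14 groups deviated together (r = 0.25, 0.17, 0.26 and 0.14). The numbers were used as a block in an alternative fit, in the day 6 and time comparisons as well. At day 6 r was -0.15, -0.42, -0.24 and -0.0013. Across days r was -0.095, -0.050, 0.024 and -0.045 in unstressed wounds and 0.020, -0.017, -0.16 and 0.087 in stressed wounds. The arrays thus gave no ground for the block at day 6 or across days. The pairing comes from the arrays, and day 14 pairs are also of 1 Xist class. No 2 replicates of a group were alike: their differences had an SD of 0.24 or more. Windows were read, and plots drawn, in Python 3.11.15 (pandas 2.3.3, numpy 2.4.6, matplotlib 3.10.9). Some genes of the series are not analysed here.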

Additional observations from a re-analysis of the deposited data

Results flagged for a closer look

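Single arrays stood apart from the other 3 of their group in 11 of 112 groups of 4 (28 probe sets in 4 groups) by Dixon's criterion, where chance gives about 1 in 20. Igf1 1419519_at was low in unstressed replicate 3 at both days, at -0.76 on day 6 and -1.37 on day 14, and in stressed day 6 replicate 2 Igf1 1452014_a_at was low at 0.13. In the same stressed day 6 replicate 2, Igfbp4 1421992_a_at was low at -0.42, Igfbp7 1423584_at low at -0.34 and Igfbp7 1437804_at high at 0.45. Igfbp7 1423585_at read 0.59 in stressed day 6 replicate 4 and Igf2 1448152_at 1.75 in stressed day 6 replicate 1, each away from a tight group. Igf2r 1424111_at was low in unstressed day 6 replicate 1 at -0.52, Igf2r 1424112_at was high in stressed day 14 replicate 2 at 0.96, and Igf1r 1428967_at was low in unstressed day 14 replicate 3 at -0.68.

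The day 14 loading difference of Igfbp4 differed between the Xist arrays and the arrays with Y-linked signal, by 2.34 with 1423756_s_at, 2.05 with 1423757_x_at, 1.84 with 1437405_a_at and 1.94 with 1437406_x_at (limma, adjusted p = 0.0332, 0.0245, 0.0416 and 0.0291). Some probes may be shared between these probe sets, which read the same gene. The lead probe set 1421992_a_at pointed the same way, by 2.02, and did not pass (adjusted p = 0.0793), as did 1421991_a_at, by 1.61 (adjusted p = 0.233).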

How the results depend on the processing

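Of 25 calls among the 28 probe sets, these held under every alternative run: Igf1 1437401_at at day 14, Igf1 1437401_at, Igf2 1448152_at, Igf1r 1452982_at, Igfbp5 1452114_s_at and Igfbp7 1423585_at over time in unstressed wounds, and Igf1r 1452108_at and Igfbp5 1422313_a_at over time in stressed wounds. Igf1 1437401_at, Igfbp5 1452114_s_at and Igf1r 1452108_at are not lead probe sets. They met 8 alternatives against 10 for lead probe sets, since the gene-level ones read lead probe sets or gene means. The mean of the Igfbp5 probe sets did not pass over time in unstressed wounds (limma, adjusted p = 0.362). That of Igf1r did not pass over time in stressed wounds (adjusted p = 0.0614). The day 6 count of 0 became 2 with quantile normalization (Igf1 1437401_at and Igfbp7 1423585_at) and 3 with array weights (these and Igfbp2). Over all probe sets the day 6 count went from 9 to 496 and 591 in these settings. The day 14 count of 7 became 2 when only day 14 arrays were fitted, 2 with quantile normalization, 13 with the arrays with Y-linked signal alone (7 higher, 6 lower) and 3 with only the Xist arrays. Without 1 array it ranged from 3 to 9, and the 3 were reached without stressed replicate 2. Over all probe sets the day 14 count was 2567, against 122 with only day 14 arrays and 364 with quantile normalization. It was 6548 with the arrays with Y-linked signal alone, 800 with only the Xist arrays and 948 without stressed replicate 2. Quantile normalization changed the split of member calls from 6 higher and 1 lower to 2 and 0 at day 14. Over time in unstressed wounds it changed from 3 higher and 8 lower to 8 and 5. Over all probe sets the split went from 1156 higher and 1411 lower to 188 and 176 at day 14. Over time in unstressed wounds it went from 5871 and 8166 to 6036 and 6311. The difference between the days gave 1 call with array weights (Igf1r 1452982_at) and 5 with the arrays with Y-linked signal (4 Igfbp4 probe sets and that of Igf1r), in place of 0. Over all probe sets it gave 865 and 2749 calls in these settings, in place of 3. The count of 7 over time in stressed wounds became 2 with the mean of each gene's probe sets, which tests 10 genes. Of all 18193 genes, 8301 passed there. With 1 array left out, the counts ranged from 0 to 0 at day 6 and for the difference, from 8 to 13 over time in unstressed wounds and from 5 to 9 over time in stressed wounds.

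Arrays were restricted by class in 2 settings. These were the arrays with Y-linked signal alone, and the Xist arrays at day 14 with all day 6 arrays. The sign turned there for 34 of 252 values. Of these, 5 passed the threshold with all arrays or in the restricted fit, all of Igfbp4. All day 6 arrays have Y-linked signal, so class and day cannot be told apart in the time values of the second setting. With only the Xist arrays at day 14, Igfbp4 1423756_s_at was 0.91 higher with loading, and over time in stressed wounds it was 0.63, 1423757_x_at 0.69 and 1437405_a_at 0.69. With the arrays with Y-linked signal, 1437406_x_at was -0.71 over time in stressed wounds. The mean of the 2 Igfbp5 probe sets was -0.27 over time in unstressed wounds. The cause was not tested. With the replicate number as a block, the member counts were 5 at day 14, 12 over time in unstressed wounds, 8 over time in stressed wounds and 0 otherwise; it ended the day 14 calls of Igfbp5 1452114_s_at and Igf1r 1452982_at and added Igfbp4 1437405_a_at over time in unstressed wounds (adjusted p = 0.0395) and Igfbp5 1452114_s_at over time in stressed wounds (adjusted p = 0.0463). The fit on only the arrays compared was not run for the difference between the days, which uses all arrays, and a filter on dim probes was not run because centred values hold no signal over background.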
